A study of Mus musculus with 16 samples.

Results

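The 10 genes described here encode sensors, an adaptor, proteases and effectors of the inflammasome, and were chosen by name from the 54532 genes of the deposited count table. They were the sensors Nlrp1a, Nlrp1b, Nlrp6, Nlrc4 and Naip1, the adaptor Pycard, the proteases Casp1 and Casp4, the pore protein gene Gsdmd and the cytokine gene Il18. The choice used no measured value, although it was made with earlier results of these cultures known.

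Differentiated enteroids, hollow epithelial structures that grow out of isolated mouse jejunal crypts, were sequenced as 4 groups of 4 cultures. MYO5BΔIEC cultures were Vil-CreERT2;Myo5b-flox/flox enteroids, in which the villin promoter drives a tamoxifen-activated Cre recombinase in epithelial cells, and they received the vehicle PBS during differentiation. MYO5B(G519R) cultures were Vil-CreERT2;Myo5b-flox/G519R enteroids, which keep a single mutant allele once the floxed allele is cut, and their label gives no treatment. Compound-1-treated MYO5BΔIEC cultures had the flox/flox genotype and received 100 nM of Compound-1, an agonist of the lysophosphatidic acid receptor LPAR5, for 2 days. Cre was induced in these 3 groups with 1 µM 4-OH-tamoxifen for 24 h. Control cultures are labelled only as Control with no treatment. The methods take control enteroids from the same Cre-carrying flox/flox line and name ethanol as the vehicle of tamoxifen, while a legend calls the controls healthy littermates. The labels name tamoxifen for the other groups only, so exposure to tamoxifen and loss of MYO5B cannot be told apart in a comparison with them. The mice were adults, their strain was not given in the sources used here, and the study describes the 4 cultures of a group as coming from 4 mice.

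Inflammasomes are protein platforms that assemble in the cytosol when a sensor meets a microbial product or a sign of cell damage. The sensor recruits caspase-1, often through the adaptor ASC, the product of Pycard, and caspase-1 then cuts the precursor of interleukin-18 and gasdermin D, whose freed part forms pores in the plasma membrane. In the intestinal epithelium, NAIP and NLRC4 respond to bacterial flagellin and secretion systems, caspase-4 binds lipopolysaccharide, and infected enterocytes can be extruded into the lumen. The mouse Nlrp1 paralogs are known to differ between inbred strains, and their counts are given here for each culture.

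The bases just before the start site are shown for the Nlrp1 pair, whose counts were at 0 in most cultures, and for Nlrp6, Pycard, Casp1, Casp4 and Il18, which passed the test in at least 1 comparison. They are the 250 bases upstream of the RefSeq start in GRCm38.p6, written in the direction of the gene. RefSeq windows were matched for 9 of the 10 genes, Gsdmd being the exception. Capitals mark matches to the AP-1 motif TGANTCA or to the NF-κB motif, searched on both strands with overlapping matches merged.
Nlrp1a, chr11:71144705-71144954, minus strand: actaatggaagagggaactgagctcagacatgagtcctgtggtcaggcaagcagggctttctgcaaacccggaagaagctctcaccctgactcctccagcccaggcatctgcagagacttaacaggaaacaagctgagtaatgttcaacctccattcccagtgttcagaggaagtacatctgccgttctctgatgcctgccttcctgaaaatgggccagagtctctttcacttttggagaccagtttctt
Nlrp1b, chr11:71230734-71230983, minus strand: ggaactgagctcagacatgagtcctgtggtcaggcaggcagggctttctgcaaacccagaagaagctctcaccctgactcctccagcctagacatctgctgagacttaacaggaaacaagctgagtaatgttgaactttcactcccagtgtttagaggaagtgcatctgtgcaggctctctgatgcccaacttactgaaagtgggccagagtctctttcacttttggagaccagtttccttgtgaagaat
Nlrp6, chr7:140920652-140920901, plus strand: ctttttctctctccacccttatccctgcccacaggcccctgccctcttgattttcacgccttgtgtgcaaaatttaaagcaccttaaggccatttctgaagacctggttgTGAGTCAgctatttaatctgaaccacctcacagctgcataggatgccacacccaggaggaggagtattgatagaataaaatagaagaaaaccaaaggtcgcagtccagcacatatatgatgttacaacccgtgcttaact
Pycard, chr7:127993868-127994117, minus strand: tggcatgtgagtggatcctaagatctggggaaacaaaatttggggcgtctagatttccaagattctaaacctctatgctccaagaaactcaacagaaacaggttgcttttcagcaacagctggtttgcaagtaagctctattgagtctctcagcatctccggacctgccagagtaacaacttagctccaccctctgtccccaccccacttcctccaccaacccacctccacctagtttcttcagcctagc
Casp1, chr9:5298267-5298516, plus strand: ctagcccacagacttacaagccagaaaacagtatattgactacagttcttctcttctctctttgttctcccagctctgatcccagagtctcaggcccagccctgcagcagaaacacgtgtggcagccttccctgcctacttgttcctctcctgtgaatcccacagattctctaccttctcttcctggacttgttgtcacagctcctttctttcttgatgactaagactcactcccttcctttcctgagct
Casp4, chr9:5308599-5308848, plus strand: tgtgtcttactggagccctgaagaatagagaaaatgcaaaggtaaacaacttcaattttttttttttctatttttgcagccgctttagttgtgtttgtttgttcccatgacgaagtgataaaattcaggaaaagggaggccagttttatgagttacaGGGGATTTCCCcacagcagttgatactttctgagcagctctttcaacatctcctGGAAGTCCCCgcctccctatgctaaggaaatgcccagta
Il18, chr9:50554450-50554699, plus strand: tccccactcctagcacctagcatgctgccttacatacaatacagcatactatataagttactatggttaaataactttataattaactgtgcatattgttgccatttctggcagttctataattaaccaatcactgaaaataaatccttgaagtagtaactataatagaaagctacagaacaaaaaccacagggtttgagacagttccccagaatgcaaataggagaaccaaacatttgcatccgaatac
The RefSeq start of Il18 used here is not the start of a GENCODE transcript. The AP-1 letters, which read as themselves on the opposite strand with an open middle base, were found before Nlrp6 and in 6.75% of all 32851 RefSeq windows. NF-κB matches were found before Casp4 and in 7.25% of windows. The letters GAAANNGAA, part of an interferon response element, occurred in 7.13% of windows and the STAT motif TTCNNNGAA in 7.02%, and neither occurred in a window of these 9 genes. The member windows held between 0 and 3 CG dinucleotides, against a median of 6 over all windows. In a global alignment the Nlrp1a and Nlrp1b windows shown shared 219 of 263 aligned columns, or 83.3%, with an unbroken shared stretch of 37 bases. A further RefSeq start of Nlrp1b lies inside the gene, and its window shared 50.2% of aligned columns with that of Nlrp1a.

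Between 27804968 and 40101729 reads were counted per culture, and levels are given in CPM, counts scaled to library size with edgeR's TMM method over the 16 libraries. A count of 0 allowed a level of up to 3 counts, 0.0736 to 0.111 CPM by library, for counting error only. All 6 epithelial, 10 enterocyte, 7 goblet and 7 Paneth cell markers were above 1 CPM in every library, whereas 4 of 10 myeloid and 7 of 8 lymphocyte markers stayed below 10 counts in every library. The other myeloid markers included 3 above 1 CPM in every library, Cd14, Cd68 and Itgam, and the summed myeloid level was 12.2 to 14.6 CPM over the control, 16.8 to 38.5 CPM over treated, 13.7 to 21.8 CPM over MYO5BΔIEC and 14.4 to 18.6 CPM over MYO5B(G519R) cultures. Cd68 was called higher in MYO5BΔIEC (log2 fold change 1.09, edgeR adjusted p = 0.0332) and Cd14 in treated cultures (1.05, edgeR adjusted p = 0.0250). The targeted gene Myo5b averaged 189 ± 29.9 CPM over the controls (SD, n = 4), 111 ± 26.8 CPM over treated, 128 ± 31.0 CPM over MYO5BΔIEC and 150.4 ± 17.0 CPM over MYO5B(G519R) cultures. Its level against control passed the test only in treated cultures (log2 fold change -0.77, edgeR adjusted p = 0.0146), with edgeR adjusted p = 0.0503 in MYO5BΔIEC and 0.109 in MYO5B(G519R). Control culture 1 stood apart from the other controls: its mean correlation with them was 0.954 against 0.973 to 0.975, and the summed level of the enterocyte markers was 3583 CPM in it and 13319 to 16658 CPM in the others. The epithelial marker sum of this culture was higher than in the other controls, at 7139 against 5799 to 5941 CPM. So were its goblet sum, at 1745 against 1428 to 1553 CPM, and its tuft cell sum, at 66.7 against 20.6 to 26.7 CPM. Its Paneth cell, myeloid and lymphocyte sums were lower than those of the other controls. Member results that rest on the controls are therefore given with and without control culture 1 where its removal changed a call. That culture was also the lowest control for Pycard, Casp1 and Il18. Leaving it out widens the differences of these genes by construction, so their smaller p-values without it add no support. The pathway lists are given by their counts without it. Its removal changed calls across all genes tested. Without it 21.2% were called higher and 20.8% lower in MYO5BΔIEC against control. The shares were 24% and 22.1% in MYO5B(G519R) and 22.9% and 19.2% in treated cultures.

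Compared per gene length, with the authors' FPKM averaged over the 16 cultures, Nlrp6 was the highest of the 10 genes at 70.3 FPKM. Nlrp6 encodes a sensor known for its role in the intestinal epithelium. Gsdmd followed at 56.9 FPKM and Casp1 at 53.2 FPKM, and the ranges of these 3 genes over the cultures overlapped, from 37.9 to 91.6, 37.8 to 79.3 and 35.8 to 94.2 FPKM. Il18, Naip1 and Pycard had nearly equal means of 26.5, 26.3 and 25.8 FPKM. Nlrc4 was at 15.63 FPKM and overlapped with each of those 3 genes. Casp4, at a mean of 4.66 FPKM, had its highest culture at 6.93 FPKM, below the lowest Nlrc4 culture at 11.4 FPKM. Nlrp1b and Nlrp1a closed the order at 0.269 and 0.00177 FPKM. Among neighbours in this order, only Nlrc4 and Casp4, and Casp4 and Nlrp1b, did not overlap in their ranges.

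**Figure D1:**
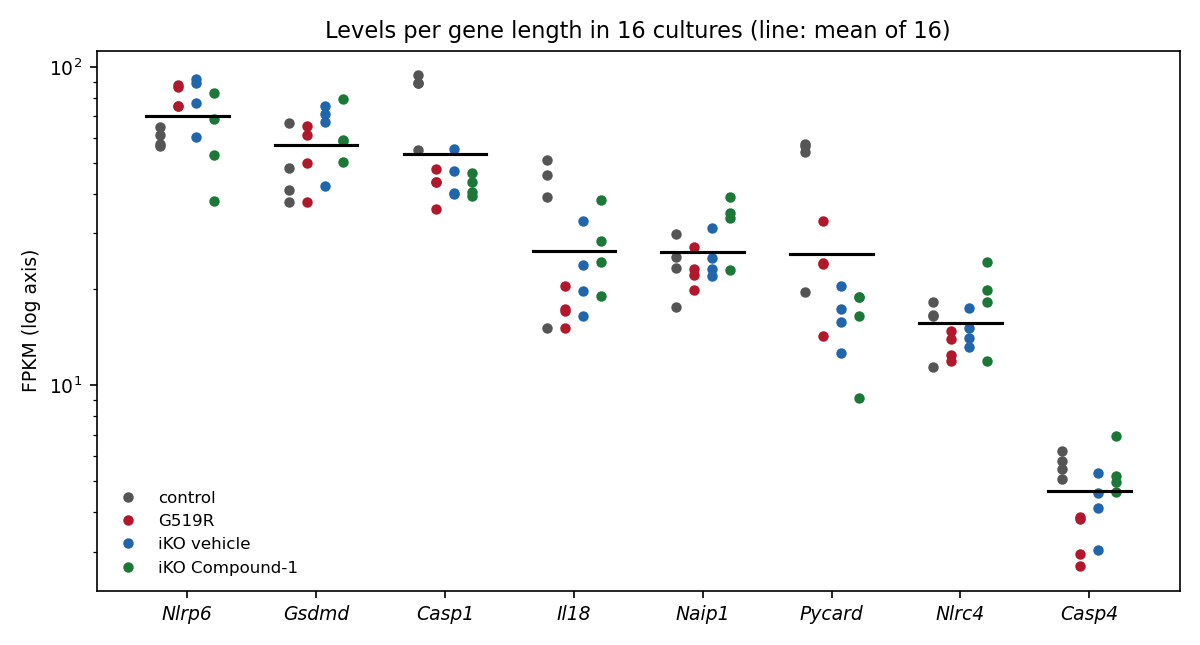
FPKM on a log axis for the 8 genes detected in every culture, 1 point per culture coloured by group, with a line at the mean of the 16 cultures. Casp4 lies below the other 7 genes in every culture, and Nlrp6, Gsdmd and Casp1 overlap at the top.

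Nlrp1b, whose product is activated when proteases such as anthrax lethal factor cleave it, was read in some cultures and not in others. The 4 control cultures and the 4 Compound-1-treated cultures had 0 counts each. MYO5B(G519R) cultures 1 to 4 had 93, 176, 166 and 83 counts. MYO5BΔIEC cultures 1 to 4 had 0, 151, 216 and 1 counts. All MYO5B(G519R) cultures thus had reads while the MYO5BΔIEC group was split, with cultures 2 and 3 at 151 and 216 counts, the latter above every mutant culture, and cultures 1 and 4 at 0 and 1. The MYO5B(G519R) mean was 3.75 ± 1.32 CPM (SD, n = 4), at least 33.7-fold higher than control taken at 3 counts in its shallowest library (edgeR adjusted p = 0.00177). In MYO5BΔIEC the mean was 3.05 ± 3.73 CPM (SD, n = 4), at least 27.4-fold higher on the same floor (edgeR adjusted p = 0.0360), an SD larger than the mean, with 2 cultures at 0 or 1 count. Nlrp1b met the count minimum only through the MYO5B(G519R) or MYO5BΔIEC cultures, since the controls had no reads, so its place among the members called higher supports nothing about the members as a group. That call was lost when control culture 2, 3 or 4 was left out (adjusted p = 0.0652 to 0.0695 in edgeR) and in the 3 limma fits on log2 FPKM (adjusted p = 0.182 to 0.286), and without MYO5BΔIEC culture 2 or 3 the gene fell under the count minimum and was not tested. In treated against vehicle cultures the 4 treated cultures at 0 made the mean at least 30.3-fold lower, which did not pass the test (edgeR adjusted p = 0.532). The difference between MYO5B(G519R) and MYO5BΔIEC did not pass (log2 fold change 0.31, 95% interval -1.76 to 2.37, edgeR adjusted p = 0.954).

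Nlrp1a, the neighbouring paralog on chromosome 11 (71092236 to 71144704, minus strand, GRCm38), had 4 counts in MYO5BΔIEC culture 4 and 0 in the other 15 cultures, and was not tested. Nlrp1b lies at 71153102 to 71230733 on the same strand. The pseudogene Nlrp1c-ps beside it had 1, 0, 2 and 0 counts in MYO5B(G519R) and 0, 2, 4 and 0 in MYO5BΔIEC cultures 1 to 4, and 0 in the control and treated cultures. Of the stretches of 100 bases in the longest GENCODE transcript of Nlrp1b, 3 of 4220 also occurred in Nlrp1a and in no other gene. The region within 500 kb of the Nlrp1 pair held 46 genes, the pair included. Apart from the pair, 19 had a mean of at least 1 CPM, and over the 16 cultures their Pearson correlations with Nlrp1b ran from -0.69 for Rabep1 to 0.40 for Inca1. The level of 18 of those 19 genes stayed within 4.79-fold between the highest and lowest culture, with 12.9-fold for Gm12320.

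The gene most like Nlrp1b over the 16 cultures, among 17695 genes ranked by the correlation of log2 CPM, was Rpl26 (Pearson r = 0.95), which encodes a protein of the large ribosomal subunit. Rpl26 lies on the same chromosome at 68901583 to 68906989. Its counts were 817 to 1146 in the control cultures, 436 to 723 in treated cultures and 9041 to 12449 in MYO5B(G519R). In MYO5BΔIEC cultures 1 to 4 they were 480, 10042, 10273 and 401, so that the cultures with many Rpl26 reads were the same 6 cultures that had over 1 Nlrp1b read. Of the 558 stretches of 100 bases in the longest Rpl26 transcript, 23.1% also occurred in 3 other annotated genes, so that its reads could be split between copies. C87414 (r = 0.86) and Insl3 (r = 0.82) followed, with at most 27 and 33 counts in a culture. The correlations are descriptions over cultures that share libraries and groups. The part of reads shared between copies in these counts was not tested.

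**Figure D2:**
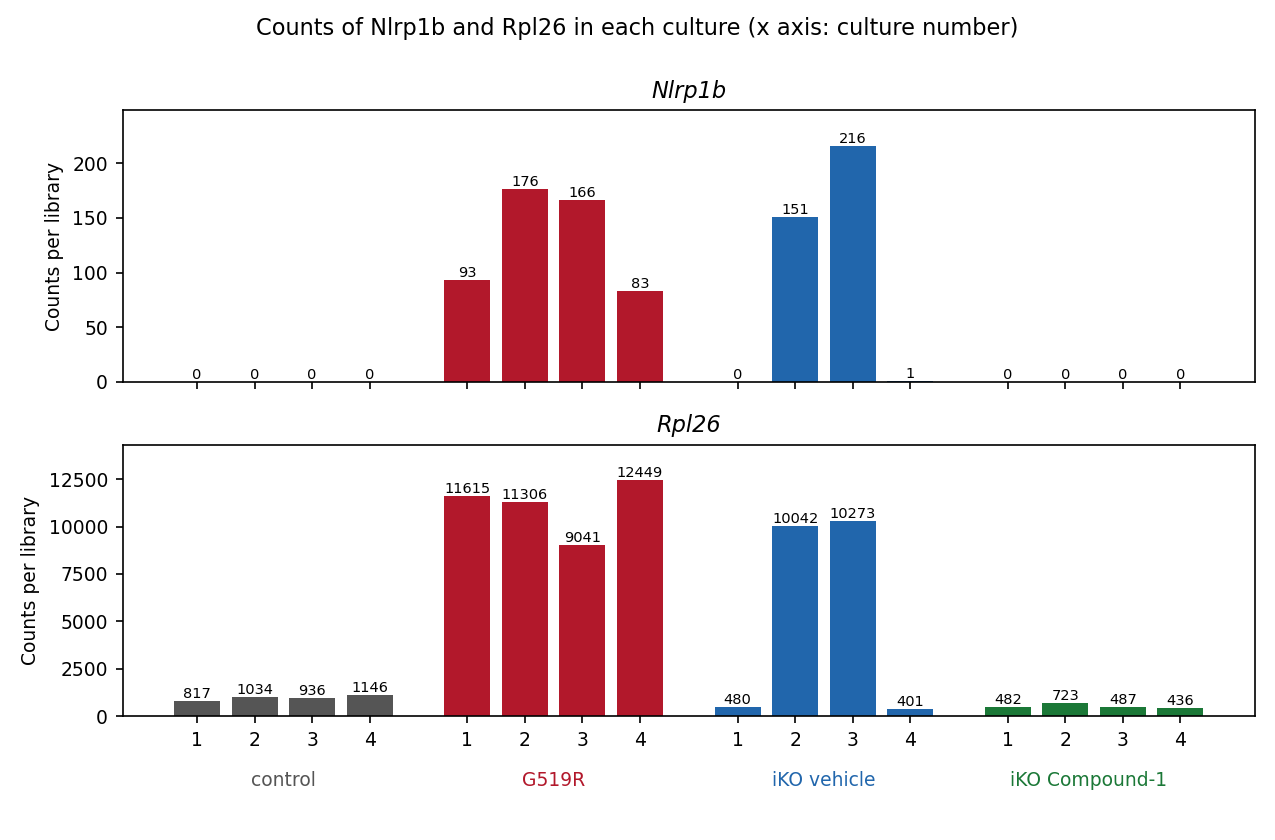
Raw counts per library of Nlrp1b (top) and Rpl26 (bottom), 1 bar per culture, grouped as control, G519R, iKO vehicle (MYO5BΔIEC) and iKO Compound-1 (treated MYO5BΔIEC). Both genes are high in the 4 G519R cultures and in iKO vehicle cultures 2 and 3, with Nlrp1b at 83 to 216 counts there and at 0 or 1 in the other 10 cultures.

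In MYO5BΔIEC against control cultures, Pycard and Casp1 were lower and Nlrp1b, described above, was the member called higher. Of the 9 genes tested, 1 was called higher and 2 lower, against 13.5% and 13.8% of all 17951 genes tested. At an unadjusted p under 0.05 edgeR counted 5 of the 9 genes and 40.4% of all genes. The groups overlapped in all 9 genes, where 13% of all genes were higher and 13.9% lower in every MYO5BΔIEC culture. The median log2 fold change of the members tested was -0.09, and it was -0.01 over all genes tested. A lower level in bulk RNA does not tell fewer cells of a type from less RNA per cell.

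Among the sensors in this comparison, Nlrp6 was at 313 ± 16.7 CPM in control and 406 ± 72.4 CPM in MYO5BΔIEC (SD, n = 4), a log2 fold change of 0.38 that did not pass (edgeR adjusted p = 0.0975). Nlrp6 passed in 1 of the 8 fits that left out a culture (edgeR adjusted p = 0.0311) and in 0 of the 9 other alternatives. Nlrc4, the partner that NAIP proteins recruit, was at 76.2 ± 15.01 and 71.2 ± 9.28 CPM, and Naip1, the receptor for the needle of bacterial secretion systems, at 137 ± 29.6 and 142 ± 23.4 CPM. The log2 differences of both were within 0.10 of 0, with 95% intervals of -0.43 to 0.24 and -0.31 to 0.41.

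Pycard (ENSMUSG00000030793, chromosome 7, 127989708 to 127993867) had 75.2, 222, 211 and 226 CPM in control cultures 1 to 4. In MYO5BΔIEC cultures it had 78.8, 59.0, 48.5 and 67.1 CPM. The 4 MYO5BΔIEC cultures were below control cultures 2 to 4, and culture 1 of MYO5BΔIEC slightly exceeded control culture 1. The log2 fold change was -1.53 ± 0.31 (SE, adjusted p = 0.00616 in edgeR), and leaving out control culture 1 gave -1.79 (adjusted p = 3.65e-05 in edgeR). The call stood in each of the 8 fits that left out a culture and in the 9 other alternatives.

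Casp1 (ENSMUSG00000025888, chromosome 9, 5298517 to 5307265), the protease at the centre of the pathway, had 82.9, 137, 137 and 147 CPM in the control cultures. The MYO5BΔIEC cultures had 60.3, 59.2, 83.6 and 71.7 CPM, of which culture 3 alone reached control culture 1. The log2 fold change was -0.87 ± 0.19 (SE, adjusted p = 0.00904 in edgeR), and the call stood in all 8 fits without a culture and in the 9 other alternatives. Casp4, which lies next to Casp1 and binds bacterial lipopolysaccharide, was at 21.5 ± 2.00 CPM in control and 15.9 ± 3.65 CPM in MYO5BΔIEC, and its log2 fold change of -0.43 did not pass (edgeR adjusted p = 0.102). Casp4 passed in 1 of the 8 fits without a culture (edgeR adjusted p = 0.0456) and in 1 of the 9 other alternatives.

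Gsdmd was at 118 ± 32.4 CPM in control and 152 ± 34.9 CPM in MYO5BΔIEC (log2 fold change 0.37, edgeR adjusted p = 0.249). Il18 had 15.7, 54.1, 48.4 and 41.9 CPM in control and 24.9, 16.7, 34.2 and 20.8 CPM in MYO5BΔIEC cultures. Control culture 1 was the lowest of these 8 values. The log2 fold change of Il18 was -0.72 and did not pass (edgeR adjusted p = 0.139), while leaving out control culture 1 gave -0.99, which passed (adjusted p = 0.00325 in edgeR). The same control culture that was low in Pycard, Casp1 and Il18 was low in summed enterocyte markers, given above, and in summed Paneth cell markers, at 3246 CPM against 6662 to 7761 CPM in the other controls. Markers also moved between the groups. The summed Paneth cell markers had a median of 6915 CPM over the control, 3743 CPM over treated, 3838 CPM over MYO5BΔIEC and 3251 CPM over MYO5B(G519R) cultures, and 2 of 7, Lyz1 and Itln1, were called lower in MYO5BΔIEC (log2 fold changes -0.75 and -0.83, edgeR adjusted p = 0.0401 and 0.0272). Of the 6 epithelial markers 4 were called higher in MYO5BΔIEC and 0 lower, and the sum was 5799 to 7139 CPM in control and 8778 to 9447 CPM in MYO5BΔIEC. Of the 10 enterocyte markers 3 were called higher and 0 lower in MYO5BΔIEC, with 6 log2 fold changes above 0 and 4 below. Against control 1 was called higher and 1 lower in MYO5B(G519R), and 3 higher and 3 lower in treated cultures. Of 7 goblet markers 2 were called higher in each group against control, with 1, 2 and 1 lower in MYO5BΔIEC, MYO5B(G519R) and treated cultures. Of 5 tuft cell markers tested 0 were called higher and, in the same order, 1, 2 and 4 lower. Among all genes tested 13.5%, 13.1% and 15.7% were called higher and 13.8%, 13.7% and 13.7% lower in these groups. The summed enterocyte markers had a median of 13360.5 CPM over the control and 6294 CPM over treated cultures. It was 10352 CPM over MYO5BΔIEC and 7461 CPM over MYO5B(G519R) cultures. The part of cell makeup in the differences of the members was not tested.

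**Figure D3:**
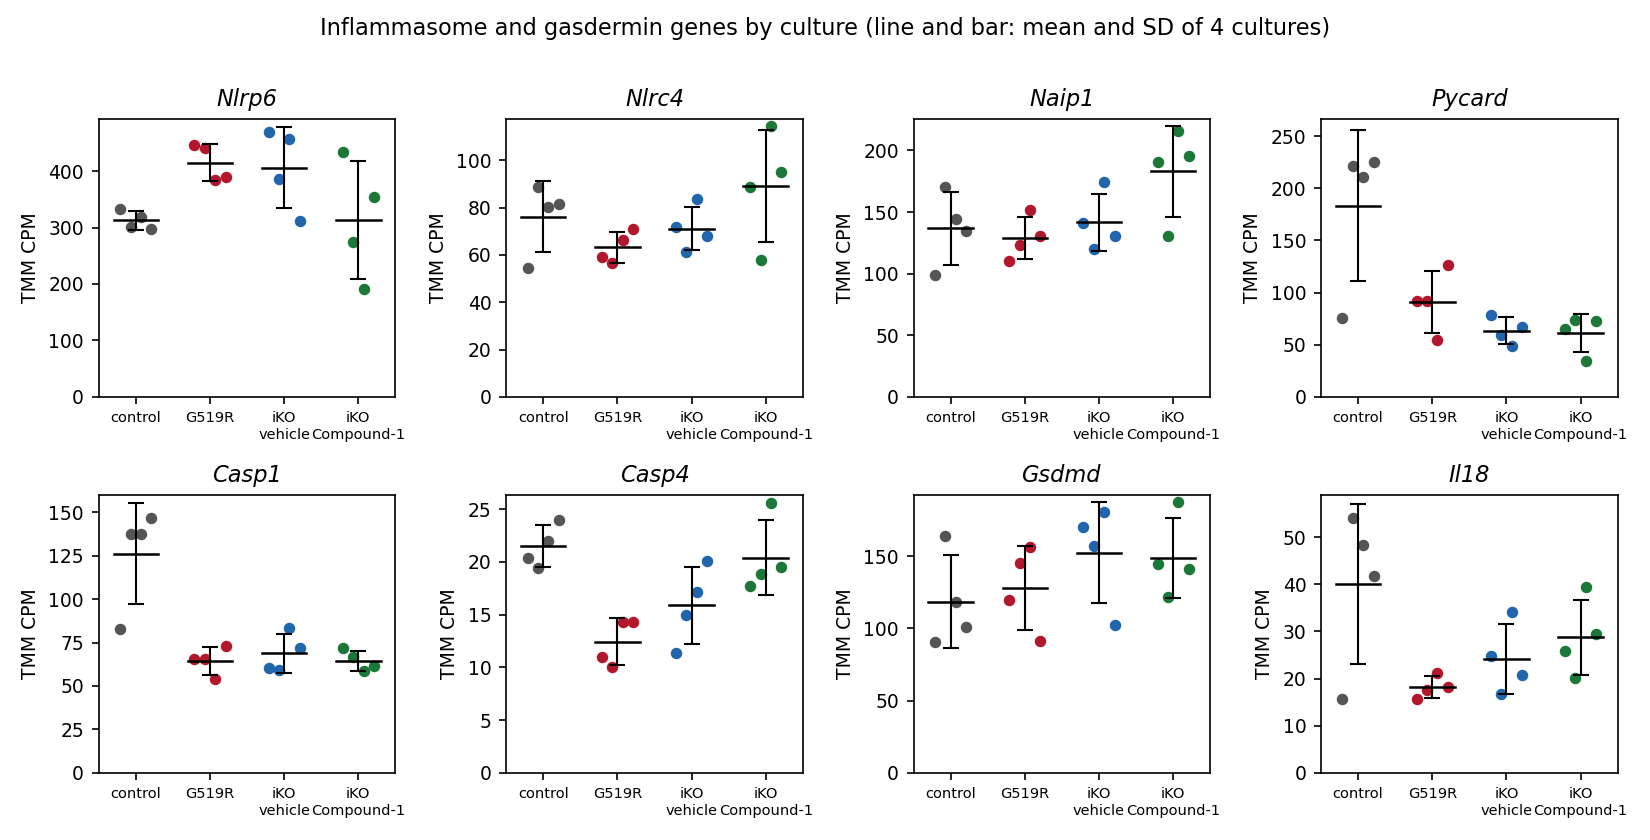
TMM CPM of 8 genes, 1 point per culture from culture 1 (left) to 4 (right) in each group, with the mean and SD of 4 cultures; iKO vehicle is MYO5BΔIEC and iKO Compound-1 is treated MYO5BΔIEC. Pycard, Casp1 and Il18 each have a low control culture 1, at 75.2, 82.9 and 15.7 CPM.

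The point mutation was compared with the same controls. In MYO5B(G519R) against control, 2 of the 9 genes tested were called higher and 3 lower, against 13.1% and 13.7% of all 17829 genes tested, with 6 genes and 39.4% of all genes at an unadjusted p under 0.05. Nlrp1b and Nlrp6 were higher, and Casp1, Casp4 and Il18 were lower. Of the 9 genes tested, 2 were higher and 2 lower in every mutant culture, where 13.6% and 13.8% of all genes tested were separated in that way. These were the called genes other than Il18. Nlrp1b, without reads in the controls, was tested only through the mutant cultures, so its place in either count of higher genes supports nothing about the members.

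Nlrp6 had 333, 301, 319 and 298 CPM in the controls and 447, 441, 384 and 389 CPM in MYO5B(G519R). Every mutant culture was above every control. The log2 fold change was 0.41 ± 0.11 (SE, adjusted p = 0.0260 in edgeR), and the call was lost in 5 of the 8 fits without a culture, those without control culture 2, 3 or 4 or MYO5B(G519R) culture 1 or 2 (edgeR adjusted p = 0.0695 to 0.0868), and in 4 of 9 other alternatives. The gene's upstream window, shown above, is the window that held the AP-1 letters. Nlrc4 at 63.2 ± 6.62 CPM and Naip1 at 129 ± 17.1 CPM in the mutant did not pass (edgeR adjusted p = 0.233 and 0.748), with Nlrc4 lower without control culture 1 (log2 fold change -0.37, edgeR adjusted p = 0.00842).

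Pycard had 91.9, 91.9, 54.3 and 127 CPM in MYO5B(G519R) cultures 1 to 4. These lay below control cultures 2 to 4 and, in 3 of 4 cultures, above control culture 1. The log2 fold change of -1.01 (SE 0.35) did not pass (edgeR adjusted p = 0.0551), and it passed without control culture 1 (-1.24, edgeR adjusted p = 0.000984), without MYO5B(G519R) culture 4 (edgeR adjusted p = 0.0486) and in 4 of the 9 other alternatives, DESeq2 among them (adjusted p = 0.0158).

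Casp1 had 65.4, 65.4, 53.8 and 72.9 CPM in the mutant, all below the lowest control. Its log2 fold change was -0.97 ± 0.18 (SE, adjusted p = 0.00523 in edgeR). Casp4 (ENSMUSG00000033538, chromosome 9, 5308828 to 5336783) had 20.4, 19.4, 22.0 and 24.0 CPM in control and 10.99, 10.03, 14.3 and 14.3 CPM in the mutant. The mutant cultures again lay below every control, with a log2 fold change of -0.79 ± 0.16 (SE, adjusted p = 0.00638 in edgeR). Both calls stood in all 8 fits without a culture and in the 9 other alternatives.

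Il18 (ENSMUSG00000039217, chromosome 9, 50554827 to 50581840) had 15.64, 17.6, 21.2 and 18.2 CPM in the mutant. These were below control cultures 2 to 4, and control culture 1, at 15.7 CPM, lay within their range. The log2 fold change was -1.14 ± 0.31 (SE, adjusted p = 0.0248 in edgeR), and the call was lost in the 7 fits without a culture other than control culture 1 (edgeR adjusted p = 0.05002 to 0.0707) and in the 3 limma fits (adjusted p = 0.0803 to 0.139). Leaving out control culture 1 gave -1.38 (adjusted p = 4.67e-05 in edgeR). Il18 overlaps Bco2, a gene on the opposite strand with 593 to 1653 counts per culture, and whether the counting used strand was not given in the sources used here. Gsdmd was at 128 ± 29.0 CPM in the mutant and did not pass (log2 fold change 0.11, 95% interval -0.31 to 0.54, edgeR adjusted p = 0.745).

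**Figure D4:**
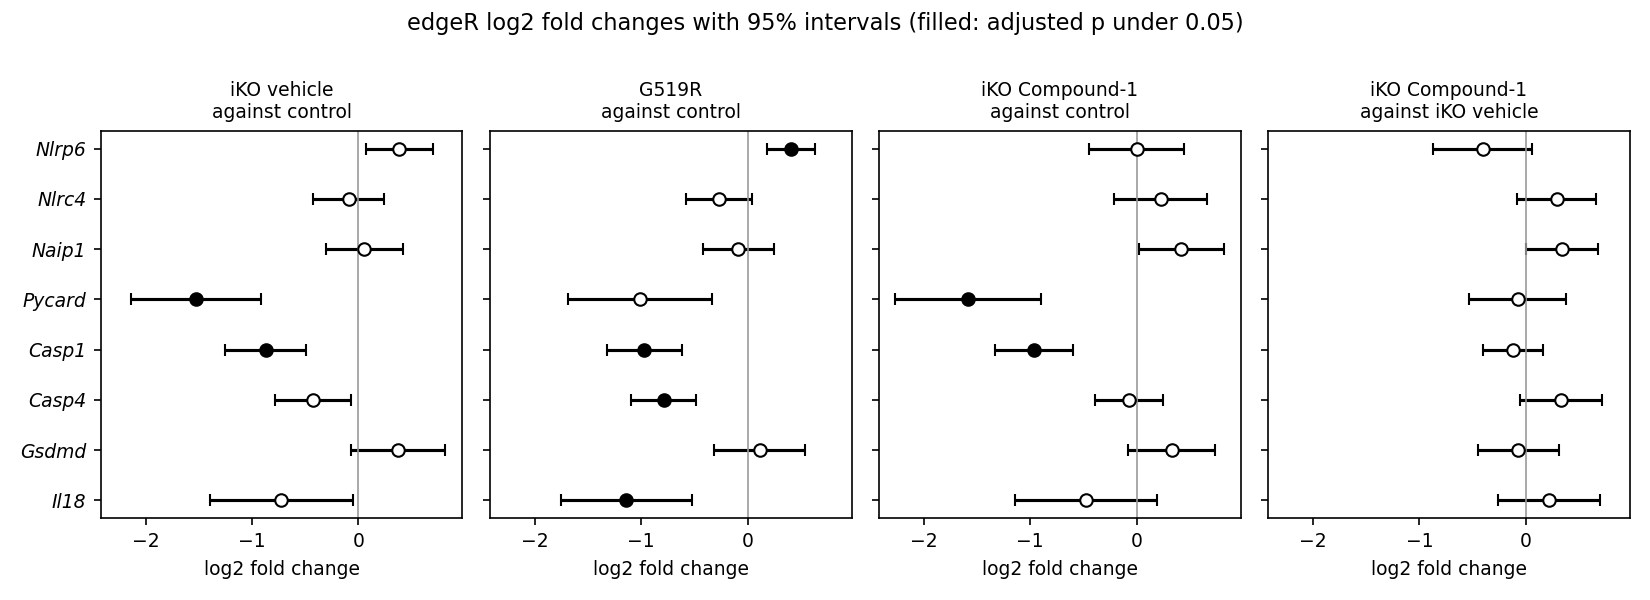
edgeR log2 fold changes of 8 genes in 4 comparisons, with 95% intervals from the fitted standard errors, where filled points have an adjusted p under 0.05 and the first 3 panels share the same 4 control cultures. Casp1 is lower in each comparison with control, at -0.87, -0.97 and -0.96, and no point is filled for Compound-1 against vehicle.

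Treated MYO5BΔIEC cultures were compared with control and with vehicle-treated MYO5BΔIEC cultures. Against control, of 8 genes tested none was called higher and 2 were called lower, Pycard and Casp1, where 15.7% and 13.7% of all 17937 genes tested were called. The same 2 genes were those at an unadjusted p under 0.05 in edgeR, which counted 41.9% of all genes, and DESeq2 called 0 members higher. Both were below every control culture, as were 13.6% of genes tested, and 0 members were above every control, as were 14.3%. Pycard had 64.8, 73.5, 34.4 and 72.6 CPM in treated cultures (log2 fold change -1.58 ± 0.35 SE, adjusted p = 0.00960 in edgeR). Casp1 had 71.6, 66.6, 58.7 and 61.5 CPM (log2 fold change -0.96 ± 0.19 SE, adjusted p = 0.00616 in edgeR). Neither gene stood at the control level after treatment. Casp4 at 20.4 ± 3.54 CPM differed from control by -0.07 on the log2 scale, with a 95% interval of -0.39 to 0.25, and Nlrp6 at 313 ± 104 CPM by 0.00, with an interval of -0.44 to 0.45. Il18 at 28.7 ± 8.05 CPM passed only without control culture 1 (log2 fold change -0.72, edgeR adjusted p = 0.0199). Naip1 at 183 ± 36.7 CPM had the largest positive difference, 0.42, which did not pass (edgeR adjusted p = 0.147). The comparisons with control share the control cultures, so their values stand side by side and are not independent.

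Against vehicle, edgeR called 0 of the 9 genes tested in Compound-1-treated cultures, where 0% of all 18037 genes tested were called in either direction. At an unadjusted p under 0.05 edgeR counted 1 of the 9 genes, Nlrp1b, and 1355 of all genes, or 7.51%. DESeq2 called 0 of the 9 genes and 100 of all genes, and limma 0 of both. The groups overlapped in all 9 genes, where 1.59% of all genes were higher and 1.27% lower in every treated culture. The log2 differences of the other 8 genes ran from -0.41 for Nlrp6 to 0.34 for Naip1. The 95% intervals were -0.53 to 0.38 for Pycard, -0.40 to 0.16 for Casp1 and -0.45 to 0.31 for Gsdmd. For Nlrp6 the treated cultures spread from 191 to 433 CPM, wider than any other group of that gene, and the interval was -0.87 to 0.06. For Pycard and Casp1, which were called lower in MYO5BΔIEC, a return by the full difference from control lay outside the interval. Nlrp6 and Casp4 were not called in MYO5BΔIEC. Their intervals, -0.06 to 0.72 for Casp4, held both the full difference and 0. The vehicle cultures are shared by the 2 comparisons, so a high or low vehicle level alone can look like a return, and a return was not tested.

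MYO5B(G519R) and MYO5BΔIEC, set against each other, gave 0 calls among the 9 genes by edgeR and 0 by DESeq2, with 1 gene, Pycard, at an unadjusted p under 0.05. Among all 17943 genes tested 0% were called higher and 0.00557% lower, which was 1 gene by edgeR and 4 by DESeq2, and 4.3% had an unadjusted p under 0.05. The groups overlapped in all 9 genes, where 0.83% of all genes were higher and 1.02% lower in every mutant culture. Pycard was higher in the mutant by 0.52 on the log2 scale, with a 95% interval of 0.08 to 0.96 (edgeR adjusted p = 0.838). With all cultures kept, Casp4 and Il18 passed edgeR against control in the mutant alone. The 2 genes differed between the groups by -0.36 and -0.41 (edgeR adjusted p = 0.838 for both), so that a difference between the 2 MYO5B models was not shown for either.

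The members were set beside the other genes of the pathway in 4 lists. Of 11 other sensor genes, of which Naip7 was not matched, 6 had enough counts to be tested, and edgeR called 0 of them in all 5 comparisons. DESeq2 called 1 of them in MYO5BΔIEC against control, where it called 5701 of all genes, and 0 in the other comparisons. At an unadjusted p under 0.05 edgeR counted 1 in MYO5BΔIEC and 1 in MYO5B(G519R) against control. It counted 40.4% and 39.4% of all genes there. Naip6, Naip2 and Naip5 were at 188 ± 23.5, 84.2 ± 9.23 and 68.6 ± 9.09 CPM in control, and Aim2, a sensor of cytosolic DNA, at 34.9 ± 17.3 CPM. Without control culture 1 edgeR called Nlrp10 higher in MYO5BΔIEC (log2 fold change 2.62, edgeR adjusted p = 0.0289) and Naip2 lower in MYO5B(G519R) (-0.30, edgeR adjusted p = 0.0252), both named after their values were seen. In those fits 21.2% of all genes were called higher in MYO5BΔIEC and 22.1% lower in MYO5B(G519R). Nlrp3, the sensor best known from macrophages, had at most 4 counts in any culture.

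Of 20 regulators, 4 rose in MYO5BΔIEC against control and 0 fell among 18 tested, where 13.5% and 13.8% of all genes tested were called. They were Dpp9, the peptidase that holds NLRP1 proteins inactive (log2 fold change 0.68, edgeR adjusted p = 0.0271), Zbp1, a sensor of unusual nucleic acids (1.27, edgeR adjusted p = 0.0335), Trim31 (0.45, edgeR adjusted p = 0.0406) and P2rx7, the ATP-gated channel (4.09, edgeR adjusted p = 0.00333). P2rx7 was low throughout, with at most 5 counts in a control culture, and is named after its values were seen. It met the count minimum only through the MYO5BΔIEC or treated cultures. Its place among the regulators called higher against control therefore supports nothing about the list. In MYO5B(G519R), where 13.1% and 13.7% of all genes were called higher and lower, among 16 regulators tested Dpp9 rose (0.64, edgeR adjusted p = 0.0244) and Casp12 fell (-1.40, edgeR adjusted p = 0.0129). Dpp9 averaged 38.7 ± 10.3 CPM over the controls, 72.7 ± 7.19 CPM over treated, 61.8 ± 10.6 CPM over MYO5BΔIEC and 60.1 ± 4.93 CPM over MYO5B(G519R) cultures. In treated cultures against control, where 15.7% and 13.7% of all genes were called, 5 of 17 regulators rose, Dpp9, Irf2, Ripk3, Trim31 and P2rx7, and Casp12 fell, with Dpp9 at 0.91 (edgeR adjusted p = 0.00786), Irf2 at 0.71 (edgeR adjusted p = 0.0319) and Casp12 at -1.24 (edgeR adjusted p = 0.0302). Ripk3 and Trim31 are named there after their values were seen. Without control culture 1 all of these regulators kept their calls, and 7, 4 and 8 regulators were called higher in MYO5BΔIEC, MYO5B(G519R) and treated cultures, where 21.2%, 24% and 22.9% of all genes were. Against vehicle edgeR called 0 of 19 regulators and 0% of all genes. At an unadjusted p under 0.05 it counted 4 regulators and 7.51% of all genes. DESeq2 called 0 regulators and 100 of all genes.

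Of 11 other gasdermin and membrane rupture genes, 4 were tested and edgeR and DESeq2 called 0 in all 5 comparisons. At an unadjusted p under 0.05 edgeR counted 1 of them, in MYO5BΔIEC against control, where it counted 40.4% of all genes. Gsdme was at 12.4 ± 2.77 CPM in control and Ninj1, which ruptures the membrane after pore formation, at 28.7 ± 6.87 CPM, while the intestinal gasdermin Gsdmc2 had at most 4 counts in any culture. Without control culture 1, Ninj1 was called lower in MYO5BΔIEC, MYO5B(G519R) and treated cultures (log2 fold changes -0.54, -0.31 and -0.56, edgeR adjusted p = 0.00658, 0.0303 and 0.0144) and Gsdma2 in the first 2 of these groups. In the same fits 20.8%, 22.1% and 19.2% of all genes were called lower.

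In the interleukin-1 family and its receptors, 8 of 14 genes were tested, and Il36a, Il36b and Il36g were not matched. Il33, an epithelial alarmin, rose in MYO5BΔIEC (log2 fold change 1.46, edgeR adjusted p = 0.0169) and in treated cultures against control (1.78, edgeR adjusted p = 0.00482), and was at 0.95 in MYO5B(G519R) (edgeR adjusted p = 0.0978). Il1rap, the shared receptor subunit, fell against control in MYO5BΔIEC by 0.70, in MYO5B(G519R) by 0.64 and in treated cultures by 1.06 on the log2 scale (edgeR adjusted p = 0.0120, 0.0260 and 0.0191). In MYO5B(G519R) the other call was Il1a, which rose (1.78, edgeR adjusted p = 0.0119) from 0.324 to 1.12 CPM and is named after its values were seen. Treated cultures against control also had Il18rap, Il1rn and, outside the naming rule, Il1a higher, with Il1rn, the receptor antagonist, at 103 ± 39.0 CPM against 23.9 ± 7.28 CPM (2.11, edgeR adjusted p = 0.00398). Il18rap, a subunit of the interleukin-18 receptor, spread from 0.157 to 6.70 CPM over the treated cultures (3.94, edgeR adjusted p = 0.0247). Against vehicle, edgeR called 0 of the 8 genes with 2 at an unadjusted p under 0.05, where 7.51% of all genes were counted. DESeq2 called 1 of the 8 and 100 of all genes. Without control culture 1 all calls of this list against control stayed, and Il18r1 was also called higher in treated cultures (log2 fold change 1.16, edgeR adjusted p = 0.0194). Against control, the shares of all genes called are those given for the regulators. Il1b, the other cytokine precursor that caspase-1 cuts, had at most 4 counts in any culture.

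Among the members themselves, levels over the 16 cultures moved together most for Nlrc4 and Naip1 (Pearson r = 0.91 of log2 CPM), for Pycard and Casp1 (r = 0.83) and for Nlrc4 and Il18 (r = 0.79). Nlrp6 and Casp4 had the most opposed levels (r = -0.79). Over all 17695 genes ranked, Naip1 was the third most like Nlrc4, after Kif16b (r = 0.93) and Igsf5 (r = 0.91). The genes most like Pycard were Tmem97 (r = 0.99), Cenpx (r = 0.99) and Osgep (r = 0.98), and those most like Casp1 were C1d (r = 0.98), Pcmt1 (r = 0.98) and Atp5c1 (r = 0.97). Cyp2c65 and Hnf4g were among the genes most like Il18 (r = 0.95 for both). Gsdmd was most like Malat1 (r = 0.91), Nlrp6 most like Car9 (r = 0.92), Casp4 most like Serinc1 (r = 0.92) and Naip1 most like Mtmr6 (r = 0.96). These are descriptions over 16 cultures that share groups and libraries. In the longest transcript of Naip1, 13.6% of stretches of 100 bases also occurred in 5 other Naip genes, and in that of Pycard 10.4% occurred in Gm45205, which overlaps it on the opposite strand with 3 to 50 counts per culture. The other members, apart from the Nlrp1 pair, shared no such stretch with another gene.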

How the data were processed

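RNA of the 16 enteroid cultures had been sequenced by the authors from poly(A)-selected libraries. The submitters' processing notes name STAR 2.5, TopHat, HTSeq 0.6.1 and DESeq2 with the build GRCm38. The deposited counts are whole-number reads per gene, and the deposited FPKM are these counts scaled by the authors for gene length and library size. How reads with several positions or either strand were counted was not given in the sources used here.

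Tests on counts used edgeR 4.0.16 under R 4.3.3, with TMM scaling, a minimum of 10 counts in 2 or more of the 8 cultures compared, the quasi-likelihood F test on 2 groups at a time, Benjamini-Hochberg adjustment over all genes tested and a threshold of 0.05. Every adjusted p credited to edgeR is from this fit, or from the fit without the culture named, and the fit was tested on simulated data. With 4 cultures a group, p-values set the difference between groups against the spread between cultures. Intervals of 95% are from the fitted SE. The alternatives were DESeq2 1.42.0, its size factors in edgeR, no filter, all 4 groups in 1 fit, a replicate block, a gene length offset, limma 3.58.1 on log2(FPKM + 1) and log2(FPKM + 0.1) with FPKM over 0.1 in at least 2 cultures, the former also without that filter, and each culture left out. For the pathway lists, the fit without control culture 1 was chosen after seeing the data. For the members each culture was left out in turn, and that fit was given apart after seeing the data. Sequence windows were aligned with a match of 1, a mismatch of -1 and a gap of -2.

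The members and lists were chosen with earlier results of these data known. All 10 members were named. Other genes were named as the 3 with the largest log2 fold change per list and comparison among called genes averaging 1 CPM or more, the 3 most like each member among genes with 10 or more counts in 4 or more cultures, and genes within 500 kb of the Nlrp1 pair averaging 1 CPM or more, and exceptions are stated. A gene most like Il18 is not reported here. The lists are sensors, regulators, other gasdermins, the interleukin-1 family and markers of 8 cell types.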

Additional observations from a re-analysis of the deposited data

Results flagged for a closer look

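In 3 of the 35 sets of 4 cultures that had any reads of a member, a single culture lay far from the other 3 relative to the range of the group, a pattern that chance gives in about 1 of 20 such sets. In control culture 1, Pycard was at 75.2 CPM where the next control was at 211 CPM, and Casp1 was at 82.9 CPM where the next was at 137 CPM. In MYO5BΔIEC culture 4, Nlrp1a was at 0.120 CPM, from 4 counts, where the other 3 cultures were at 0. A set with reads in a single culture is always flagged, so the rate of 1 of 20 does not apply to Nlrp1a.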

How the results depend on the processing

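Some calls of members against control depended on single cultures and settings. Those of Casp1 in each comparison with control, Pycard in MYO5BΔIEC, and Casp4 and Nlrp1b in MYO5B(G519R) stood in every fit. In MYO5BΔIEC against control, members called higher fell to 0 in each of the 3 limma fits, and ranged from 0 to 2 when a culture was left out, while members called lower ranged from 2 to 3. In MYO5B(G519R) against control, 1 member was called higher with no filter, with all 4 groups in 1 fit, with the replicate block and with the gene length offset, and leaving out a culture gave 1 to 2 higher and 2 to 5 lower, with 5 without control culture 1. In treated cultures against control, 1 was called lower by limma on log2(FPKM + 1) with no filter, and 2 to 3 when a culture was left out. DESeq2, and its size factors in edgeR, gave the same direction for all 44 log2 fold changes. The cause of these changes was not tested.

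Direction changed only for log2 fold changes that did not pass the test. Naip1 in MYO5BΔIEC against control was at -0.15 with the gene length offset and at -0.076 to 0.18 when a culture was left out, and in MYO5B(G519R) against control at -0.19 to 0.033. Nlrp6 in treated cultures against control was at -0.059 with the replicate block, -0.16 with the gene length offset, -0.042 with limma on log2(FPKM + 1) with or without the filter, -0.044 with limma on log2(FPKM + 0.1) and -0.20 to 0.18 when a culture was left out. Leaving out a culture gave -0.22 to 0.024 for Gsdmd and -0.19 to 0.12 for Pycard in treated against vehicle cultures, and in MYO5B(G519R) against MYO5BΔIEC -0.10 to 1.29 for Nlrp1b, -0.075 to 0.11 for Nlrp6 and -0.16 to 0.025 for Casp1.

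The labels do not tie culture numbers to mice. Correlations of same-numbered cultures ran from -0.18 to 0.38 over the comparisons, and in none were all 4 above 0.1, with 0.03 to 0.38 in MYO5B(G519R) against MYO5BΔIEC, so the numbers were not treated as pairs. Whether vehicle and Compound-1 cultures of the same number share a mouse was not given in the sources used here. The replicate block changed 1 call, that of Nlrp6 in MYO5B(G519R) against control (edgeR adjusted p = 0.0797). Depth limits statements on Nlrp1a and on groups without Nlrp1b reads to levels above 0.0736 to 0.111 CPM.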
